A study of Mus musculus with 12 samples.

Results

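The levels of 72 genes for enzymes that add methyl groups to DNA, histones, other proteins, RNA or small thiols, or that remove them from DNA and histones, were compared between livers of obese mice with and without ethionine. The genes are every protein-coding gene whose symbol begins with Dnmt, Tet, Kmt, Kdm, Setd, Prmt, Mettl, Ezh or Ehmt followed by a digit and that had at least 10 counts in at least 6 of the 12 libraries. No measured difference between the groups entered this rule, although the genes were chosen with earlier results of these data known. Of the 56205 genes in the count table, 90 symbols matched the pattern and 82 of these were protein-coding. The 10 coding genes below the count rule were Dnmt3c, Dnmt3l, Kdm4d, Mettl11b, Mettl21c, Mettl21e, Mettl24, Mettl7a3, Prmt8 and Tet1. The 72 genes comprise 53 writers (3 Dnmt, 2 Ezh, 2 Ehmt, 8 Kmt, 8 Setd, 7 Prmt and 23 Mettl) and 19 erasers (2 Tet and 17 Kdm). All 72 also passed the low-count filter of the test.

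Poly(A) RNA was sequenced from whole livers of 12 ob/ob mice (B6.Cg-Lep ob/J), which lack leptin, overeat and develop a fatty liver, with 1 library per mouse. All mice ate standard chow and were young male adults according to the study's methods. The 6 mice of the FLO group received nothing else, and the 6 mice of the fibrotic group also received DL-ethionine. The labels disagree on its delivery: 0.165% in drinking water, for 2 weeks according to the design text, or 0.15% by injection according to the growth protocol, and the study's methods give drinking water for a shorter time. Both groups carry the leptin mutation, so neither describes a lean liver.

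Methyltransferases of these families take the methyl group from S-adenosylmethionine, which the liver makes from methionine, and release S-adenosylhomocysteine, which inhibits many of them. Ethionine is the ethyl analogue of methionine. Liver cells convert it to S-adenosylethionine, which uses up ATP and competes with S-adenosylmethionine. The Tet enzymes and most Kdm enzymes are dioxygenases that need iron and 2-oxoglutarate, and Kdm1a and Kdm1b are flavin-dependent amine oxidases.

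Total counts ran from 17815568 to 24814263 per library. The hepatocyte markers were detected in every library, with summed levels of 51495 to 85487 CPM in fibrotic livers and 74448 to 88382 CPM in FLO livers. CPM here is the count scaled to the TMM-adjusted library size, where the TMM factor corrects each total for differences in composition. Neither collagen gene on the stellate cell list separated the groups (Col1a1 log2 fold change -0.22 ± 0.33 SE, adjusted p = 0.611, and Col3a1 -0.03 ± 0.25, adjusted p = 0.925), so "fibrotic" is used below only as the group's name. The library labelled FLO replicate 3 held 3773 Xist counts, 4 Ddx3y counts and 0 Kdm5d counts, which goes against a male mouse. The other 11 libraries held at most 4 Xist counts and at least 556 Ddx3y counts. Fibrotic replicate 4 also stood apart. In it, the 36 members with transcripts longer than 4201 bases lay a median of 0.18 log2 units above their group median, and the 36 shorter members lay 0.13 below it (log2 difference -0.13). Over all genes, those in the top quartile of length lay 0.10 above and those in the bottom quartile 0.15 below in that library (-0.15).

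Of the 72 genes, 17 were called different between fibrotic and FLO livers, that is, at a Benjamini-Hochberg adjusted p of 0.01 or less over all 13416 genes tested and an absolute log2 fold change over 0.5 in edgeR's quasi-likelihood test. Among all genes tested, 29.9% were called, 15.9% higher in fibrotic livers and 14.0% lower. Among the members 11 genes (15.3%) rose and 6 (8.33%) fell, so the shares lay near or below those of all genes. The calls were spread unevenly over the families. All 6 genes that fell were Mettl genes, while 6 of the 30 writers of other families rose and none was called lower. Of the 19 erasers 1 rose and none was called lower. At an unadjusted p under 0.05, 2 of those 30 writers and 3 of those 19 erasers had negative values. DESeq2 and limma-voom also called none of the 30 writers lower, and each called 1 eraser lower (Kdm4c). The difference between families was not tested.

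**Figure D1:**
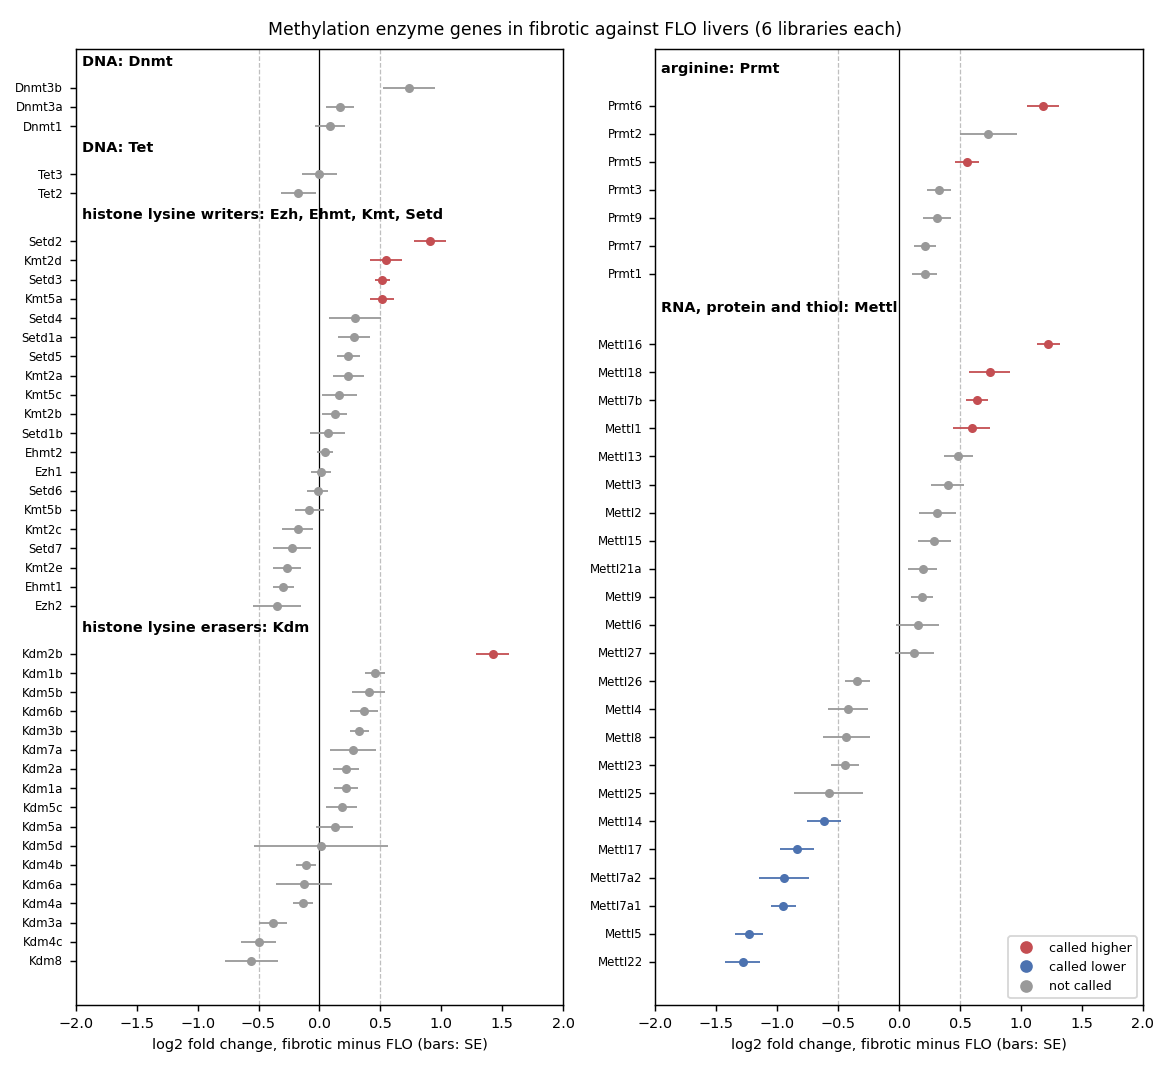
Log2 fold change (fibrotic minus FLO, horizontal axis) of each of the 72 genes, by family, with points for the edgeR estimate and bars for its SE. Red points mark the 11 genes called higher, blue points the 6 called lower, grey points the other genes, and dashed lines the fold threshold of 0.5. All blue points lie in the Mettl panel, and all 7 Prmt points lie to the right of 0.

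The median log2 fold change was 0.17 over the members, 0.17 over the writers and 0.13 over the erasers, against 0.03 over all genes tested. The values were positive for 63.9% of the members and for 51.7% of all genes. Scaling by library totals alone, without the TMM factors, moved the median of all genes to 0.20, an upward shift of 0.18. It then called 20 members higher and 5 lower, and 71.8% of all called genes were higher instead of 53.3%. Relative to the median of all genes, the median of the members was 0.14 under TMM and 0.14 under library totals. The eraser median rested partly on 1 library and was 0.05 without fibrotic replicate 4.

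The CPM ranges of both groups did not overlap for 10 members that were higher and 6 that were lower in fibrotic livers. Among all genes tested, 30.4% did not overlap, 15.3% with fibrotic higher and 15.1% with fibrotic lower. Of these 16 members, 14 were called. Kdm1b (higher) lay under the fold threshold, and Mettl26 (lower) missed both thresholds. Called members whose ranges overlapped were Kmt2d, Mettl1 and Mettl7a2.

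Promoters of the members were mostly rich in CpG, the DNA site that Dnmt enzymes methylate and that the CXXC domain of Kdm2b binds when unmethylated. The window was 250 bases before to 50 after the start in RefSeq (GRCm38.p6), and where a gene had several starts, the window with most CpG pairs was taken. A promoter was found for 60 of the 72 members and for 17491 protein-coding genes in all. The median was 24 CpG pairs per window in the members and 15 in all genes, and 54 members (90%) against 50% of all genes had at least 15. The windows below, given without the 50 bases after the start, are those of the histone lysine writer with the largest rise, of an RNA writer that rose, of the gene that fell most and of the 2 most abundant members. CpG pairs are in capitals.

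Setd2, chr9:110532347-110532596, plus strand: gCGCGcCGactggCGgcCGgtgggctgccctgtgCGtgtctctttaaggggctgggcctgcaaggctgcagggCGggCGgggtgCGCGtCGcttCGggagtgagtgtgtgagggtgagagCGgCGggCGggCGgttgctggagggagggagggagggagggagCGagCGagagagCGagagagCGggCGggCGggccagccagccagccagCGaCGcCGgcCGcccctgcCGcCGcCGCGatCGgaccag

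Mettl16, chr11:74770613-74770862, plus strand: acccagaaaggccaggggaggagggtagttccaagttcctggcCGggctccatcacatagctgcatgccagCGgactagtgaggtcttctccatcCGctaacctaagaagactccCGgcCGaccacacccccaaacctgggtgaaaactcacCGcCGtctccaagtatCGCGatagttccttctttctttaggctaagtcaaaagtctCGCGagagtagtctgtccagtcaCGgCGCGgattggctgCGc

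Mettl22, chr16:8470563-8470812, plus strand: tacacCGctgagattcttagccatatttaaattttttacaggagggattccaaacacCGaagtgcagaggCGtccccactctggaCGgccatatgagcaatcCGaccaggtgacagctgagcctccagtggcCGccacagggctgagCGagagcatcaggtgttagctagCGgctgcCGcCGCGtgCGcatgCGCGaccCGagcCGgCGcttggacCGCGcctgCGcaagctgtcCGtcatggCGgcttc

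Mettl7a1, chr15:100304567-100304816, plus strand: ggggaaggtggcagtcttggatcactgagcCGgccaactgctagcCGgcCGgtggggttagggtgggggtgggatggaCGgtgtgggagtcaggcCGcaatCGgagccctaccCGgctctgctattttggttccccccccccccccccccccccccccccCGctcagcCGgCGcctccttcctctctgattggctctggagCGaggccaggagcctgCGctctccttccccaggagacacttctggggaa

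Mettl7b, chr10:128960989-128961238, minus strand: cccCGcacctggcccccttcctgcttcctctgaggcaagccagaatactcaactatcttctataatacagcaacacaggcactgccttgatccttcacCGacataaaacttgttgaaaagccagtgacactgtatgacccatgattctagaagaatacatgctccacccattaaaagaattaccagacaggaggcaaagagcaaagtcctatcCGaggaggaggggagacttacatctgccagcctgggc

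These stretches held 31 CpG pairs for Setd2, 22 for Mettl22, 15 for Mettl16, 12 for Mettl7a1 and 3 for Mettl7b. Both a gene that rose (Setd2) and a gene that fell (Mettl22) had many CpG pairs, and the 2 genes with the highest levels had the fewest of these 5. That did not extend to the members next in level per transcript length. In their full windows Mettl26 held 20 pairs, Setd3 41, Ehmt2 40, Mettl9 17, Kmt5a 51 and Mettl23 32. A relation between level and CpG pairs was not tested. Several motifs were searched on both strands of the windows. The NRF1 motif (GCGCA, any base and GCGC) occurred in 16.7% of the members' windows (10 of 60) and in 6.81% of all, including that of Mettl22. This motif itself holds CpG pairs, in which the members' windows were richer. The shares were not matched for CpG content, and their difference was not tested. CCAAT occurred in 40% and 38.4%, the E-box CACGTG in 10% and 8.05%, the cyclic AMP element TGACGTCA in 3.33% and 2.34%, the antioxidant motif TGACNNNGC in 13.3% and 13.2%, and the xenobiotic motif TNGCGTG in 6.67% and 6.19%. A match describes letters only and no binding was measured.

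Levels are comparable between genes only per transcript length. On the scale of CPM per kb of the longest coding transcript, the members spanned from 0.254 (Dnmt3b) to 810 (Mettl7b) in FLO livers, with a median of 2.78 against 3.92 over all genes tested. Only 8 members exceeded 10 CPM per kb: Mettl7b, Mettl7a1 (143), Mettl26 (93.4), Setd3 (32.3), Ehmt2 (22.7), Mettl9 (16.2), Kmt5a (16.0) and Mettl23 (12.2). Mettl7b alone took 36.3% to 50.6% of all counts of the members in a library. Replicate livers varied little. The median coefficient of variation in FLO livers was 13.5% over the members other than Kdm5d and 14.4% over all genes tested, and in fibrotic livers it was 16.3% and 17.2%.

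**Figure D2:**
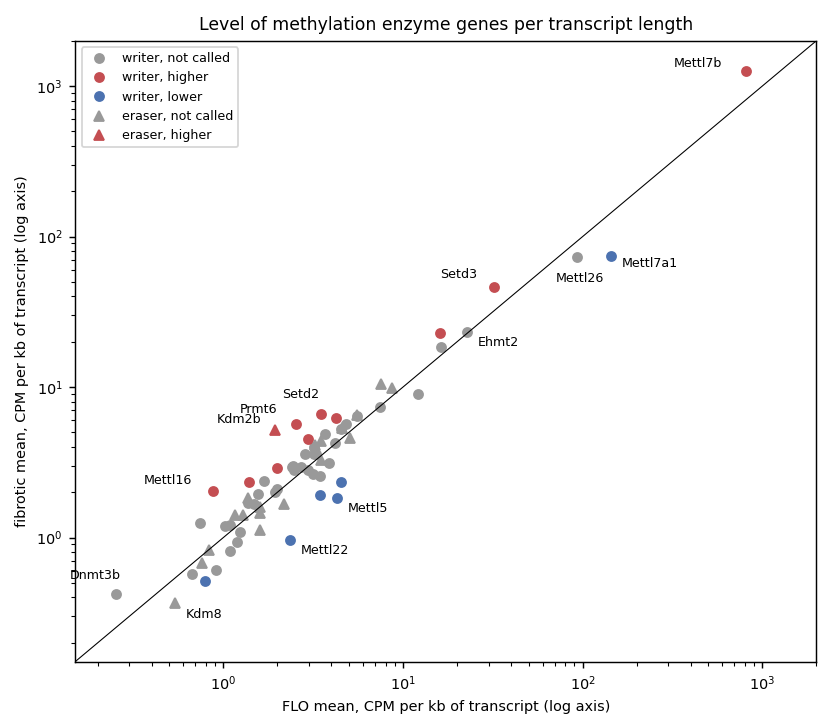
Mean level in FLO livers (horizontal) against mean level in fibrotic livers (vertical) for the 72 genes, in CPM per kb of transcript on log axes; circles are writers and triangles erasers. The line marks equal levels. Mettl7b stands alone at the top with 810 CPM per kb in FLO livers, and the red triangle above the line is Kdm2b, the only eraser called.

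The 5 DNA methylation enzymes showed no call in edgeR, and at an unadjusted p under 0.05 Dnmt3b alone differed. Dnmt1, which copies methylation after replication, had 9.99 to 14.7 CPM in FLO livers and 9.63 to 15.7 CPM in fibrotic livers, a log2 difference of 0.09 ± 0.13 (SE; adjusted p = 0.589). Dnmt3a, a de novo methyltransferase, stood at 0.17 ± 0.12 (adjusted p = 0.237). Dnmt3b, the other de novo enzyme, was the scarcest member in FLO livers. Its FLO values were 0.820, 1.02 and 1.57 CPM (lowest, median and highest) and its fibrotic values 1.42, 1.86 and 2.37 CPM. Every fibrotic library lay above the FLO median, the ranges overlapped, and at 0.73 ± 0.22 its adjusted p of 0.0100025 fell just short of the threshold. It was called by DESeq2 (adjusted p = 0.00944) and limma-voom (0.00895). Of its transcript, 11.5% of 50-base windows also occur in Dnmt3c, which had 1 count in all libraries together.

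Tet2 and Tet3, which oxidize methylcytosine, had log2 fold changes of -0.17 ± 0.15 (adjusted p = 0.339) and -0.002 ± 0.14 (adjusted p = 0.99). Among 16 partner and reader genes of DNA methylation, 4 rose and none was called lower in edgeR, DESeq2 or limma-voom, with 2 negative at an unadjusted p under 0.05 (Uhrf1 and Hells). The share called in edgeR was 25.0%, against 29.9% of all genes tested. The methyl-CpG readers Mbd1 (0.52 ± 0.14, adjusted p = 0.00643) and Zbtb4 (0.67 ± 0.12, adjusted p = 0.000173) rose, as did the stress-responsive genes Gadd45b (1.32 ± 0.23, adjusted p = 0.000179) and Gadd45g (1.96 ± 0.37, adjusted p = 0.000711), whose products take part in DNA repair and demethylation. Uhrf1, the partner of Dnmt1, stood at -0.76 ± 0.35 with an adjusted p of 0.0769.

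Setd2, the enzyme that trimethylates H3K36 in transcribed gene bodies, had the largest rise among the histone lysine writers. Its lowest, median and highest values were 25.7, 29.2 and 33.2 CPM in FLO livers and 41.6, 51.8 and 78.0 CPM in fibrotic livers. All fibrotic libraries lay above all FLO libraries, at a log2 fold change of 0.90 ± 0.13 (adjusted p = 3.56e-05). The highest value came from fibrotic replicate 4, and leaving out any library kept the log2 fold change between 0.79 and 0.98.

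Kdm2b, which demethylates H3K36 and recruits a Polycomb complex to unmethylated CpG islands, rose most of all members. Its FLO values were 7.27, 10.4 and 12.2 CPM and its fibrotic values 19.5, 27.5 and 33.1 CPM. The groups were far apart, the log2 fold change being 1.42 ± 0.14 (adjusted p = 8.25e-07), a 2.68-fold higher level. The related Kdm2a differed by 0.22 ± 0.11 (adjusted p = 0.0983). Parts of the Kdm2b transcript also occur in Gm12397 (12.5% of windows, 249 counts in all) and, on the other strand, in Rnf34 (11.3%). Neither was called: on the log2 scale the difference of Gm12397 was 1.18 ± 0.51 (adjusted p = 0.0671) and that of Rnf34 0.23 ± 0.12 (adjusted p = 0.112). Among the members listed for H3K36, the 1 writer (Setd2) and 1 of 2 erasers (Kdm2b) rose. This grouping did not separate mono-, di- and trimethylation, nor did it cover enzymes listed under other sites or names.

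For H3K4 methylation, 1 of 7 writers rose (14.3%), near the 15.9% of all genes tested that were called higher. None of 6 erasers was called in edgeR, DESeq2 or limma-voom, although 3 (Kdm1a, Kdm1b and Kdm5b) were positive at an unadjusted p under 0.05. Kmt2d, which monomethylates H3K4 at enhancers, had 32.2, 38.9 and 50.4 CPM in FLO livers and 46.9, 56.6 and 77.1 CPM in fibrotic livers. Every fibrotic value exceeded the FLO median although the ranges overlapped, and the log2 fold change was 0.55 ± 0.13 (adjusted p = 0.0025). Leaving out fibrotic replicate 1 (0.45) or FLO replicate 3 (0.49) ended the call. The other H3K4 writers ranged from -0.23 for Setd7 to 0.29 for Setd1a, with Kmt2a at 0.24, Kmt2b at 0.13, Kmt2c at -0.18 and Setd1b at 0.07. Windows shared with Gm49388 make up 54.0% of Setd1a, so that its value is uncertain.

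Among the H3K4 erasers, Kdm1b had 33.7 to 43.7 CPM in FLO livers and 45.4 to 56.2 CPM in fibrotic livers with no overlap. Its log2 fold change of 0.46 ± 0.08 had an adjusted p of 0.000296 but lay under the fold threshold. Kdm1a, its paralogue, stood at 0.22 ± 0.10 (adjusted p = 0.069), Kdm5a at 0.13 ± 0.15 (adjusted p = 0.503) and Kdm5b at 0.40 ± 0.13 (adjusted p = 0.0197). Kdm5b was highest in fibrotic replicate 4. Of the 12 partner genes of the COMPASS and MLL complexes, which house the H3K4 writers, only Ncoa6, a subunit of the Kmt2c and Kmt2d complexes, rose (0.51 ± 0.09, adjusted p = 0.000264), a call that DESeq2 did not make. None was called lower by any of the 3 tools, and 4 were negative at an unadjusted p under 0.05 (Cxxc1, Dpy30, Paxip1 and Wdr5). In edgeR 8.33% of these partner genes were called, against 29.9% of all genes tested.

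The 12 H3K9 and H3K27 enzymes on the list showed no call in edgeR. At an unadjusted p under 0.05, 2 were positive (Kdm3b and Kdm6b) and 3 negative (Ehmt1, Kdm3a and Kdm4c). Ehmt1 and Ehmt2, which dimethylate H3K9, had log2 fold changes of -0.30 ± 0.09 (adjusted p = 0.00943, under the fold threshold) and 0.04 ± 0.07 (adjusted p = 0.602). Of the 6 H3K9 erasers, Kdm4c lay closest to a call at -0.50 ± 0.14 (adjusted p = 0.00888), just inside the fold limit. It was called lower by DESeq2, by limma-voom and with 2 other normalizations (RLE and upper quartile). Kdm3a stood at -0.38 ± 0.12 (adjusted p = 0.0116), Kdm4a at -0.14 ± 0.08 (adjusted p = 0.174) and Kdm3b at 0.33 ± 0.08 (adjusted p = 0.00252).

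Ezh2 and Ezh1 are the alternative catalytic subunits of Polycomb complex PRC2, which methylates H3K27. Ezh2 had 2.89 to 3.55 CPM in FLO livers and 1.27 to 3.68 CPM in fibrotic livers (-0.35 ± 0.20, adjusted p = 0.155). Ezh1 was more abundant and hardly moved (0.01 ± 0.08, adjusted p = 0.901), and its sign changed with the normalization. Among 10 PRC2 and PRC2 partner genes, 1 rose and 4 fell. Aebp2 rose (0.70 ± 0.11, adjusted p = 8.08e-05). Rbbp7, a histone-binding core subunit, fell (-0.59 ± 0.07, adjusted p = 5.5e-06), as did the accessory subunits Phf1 (-0.67 ± 0.11, adjusted p = 9.81e-05), Phf19 (-0.72 ± 0.20, adjusted p = 0.00691) and Epop (-2.77 ± 0.20, adjusted p = 6.07e-08). Epop had 3.15 to 5.09 CPM in FLO livers and 0.431 to 0.764 CPM in fibrotic livers. The core genes Eed (-0.04) and Suz12 (0.15) were not called. Of the H3K27 erasers, Kdm6b stood at 0.36 ± 0.12 (adjusted p = 0.0171) and Kdm6a at -0.13 ± 0.23 (adjusted p = 0.665).

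Kmt5a, which monomethylates H4K20, had 34.4, 42.5 and 52.7 CPM in FLO livers and 56.2, 62.5 and 68.0 CPM in fibrotic livers. The ranges did not overlap, and the log2 fold change was 0.51 ± 0.10 (adjusted p = 0.000462). Kmt5b (-0.08) and Kmt5c (0.16), which add further methyl groups at that residue, were not called. Setd3, which methylates a histidine of actin, had 94.9, 97.0 and 106 CPM in FLO livers and 133, 140 and 151 CPM in fibrotic livers. Its libraries varied little within a group and the groups lay apart (0.52 ± 0.06, adjusted p = 8.97e-06). Both calls sat at the fold threshold and were lost with RLE (Kmt5a 0.49, Setd3 0.50), with upper-quartile normalization and in DESeq2, and Kmt5a was also lost without each of fibrotic replicates 3 and 4 and FLO replicates 2, 3 and 4 (0.45 to 0.50).

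Among 18 histone methyltransferases with other names, 4 rose and 1 fell, which is 27.8% called against 29.9% of all genes tested. At an unadjusted p under 0.05, 7 of them were positive and 5 negative. Setdb1, an H3K9 writer that silences retroelements, rose (0.58 ± 0.09, adjusted p = 8.7e-05), as did Dot1l, the H3K79 writer (0.87 ± 0.12, adjusted p = 2.25e-05). Smyd4 (0.82 ± 0.20, adjusted p = 0.0026) and Smyd5 (0.82 ± 0.10, adjusted p = 1.13e-05) also rose. Suv39h1, an H3K9 trimethylase of heterochromatin, fell (-0.76 ± 0.17, adjusted p = 0.00148). Among 9 demethylases and relatives with other names, 3 rose and none was called lower in edgeR, DESeq2 or limma-voom, with Phf8 alone negative at an unadjusted p under 0.05. Their share called in edgeR was 33.3%, near that of all genes tested. Uty, on the Y chromosome, had 0 CPM in FLO replicate 3, the library with Xist counts. It had 8.76 to 10.6 CPM in the other FLO libraries and 5.14 to 7.44 CPM in fibrotic livers. With all libraries its log2 fold change was -0.31 ± 0.56 (adjusted p = 0.665), so its lack of a call rested partly on that library. Hr, a corepressor related to the Kdm3 enzymes, had 1.89 to 3.77 CPM in FLO livers and 38.1 to 73.3 CPM in fibrotic livers (4.07 ± 0.18, adjusted p = 9.31e-10), a larger change than that of any member. Jmjd6 (0.70 ± 0.13, adjusted p = 0.000384) and the ribosomal oxygenase Riox1 (0.86 ± 0.18, adjusted p = 0.000909) rose as well.

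The protein arginine methyltransferases named Prmt had positive values, 7 of 7 under each of the 4 normalizations. Of these 7 genes 2 were called, a share of 28.6% that lay near the 29.9% of all genes tested. Carm1, an arginine methyltransferase with another name, went the other way without a call (-0.21 ± 0.07, adjusted p = 0.0148). Prmt6, which dimethylates H3 arginine asymmetrically, had 6.65, 7.69 and 8.91 CPM in FLO livers and 14.4, 16.7 and 24.4 CPM in fibrotic livers. The ranges were well apart, the log2 fold change being 1.18 ± 0.13 (adjusted p = 3.15e-06). On the other strand 31.1% of its transcript overlaps C130013H08Rik, which had 130 counts in all libraries together, and whether the counting used strand is not stated.

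Prmt5, the main symmetric arginine dimethylase, had 10.5, 11.4 and 13.0 CPM in FLO livers and 14.4, 16.5 and 21.0 CPM in fibrotic livers. Without overlap between groups, its log2 fold change was 0.56 ± 0.10 (adjusted p = 0.000229), and it fell to 0.49, under the fold threshold, without fibrotic replicate 4. Prmt2, a scarce gene, stood at 0.73 ± 0.23 with an adjusted p of 0.0163. Prmt1, the enzyme held to make most asymmetric dimethylarginine, stood at 0.21 ± 0.10 (adjusted p = 0.105), and Prmt7 at 0.21 ± 0.09 (adjusted p = 0.0612). Prmt3 (0.32) and Prmt9 (0.31) were not called.

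**Figure D3:**
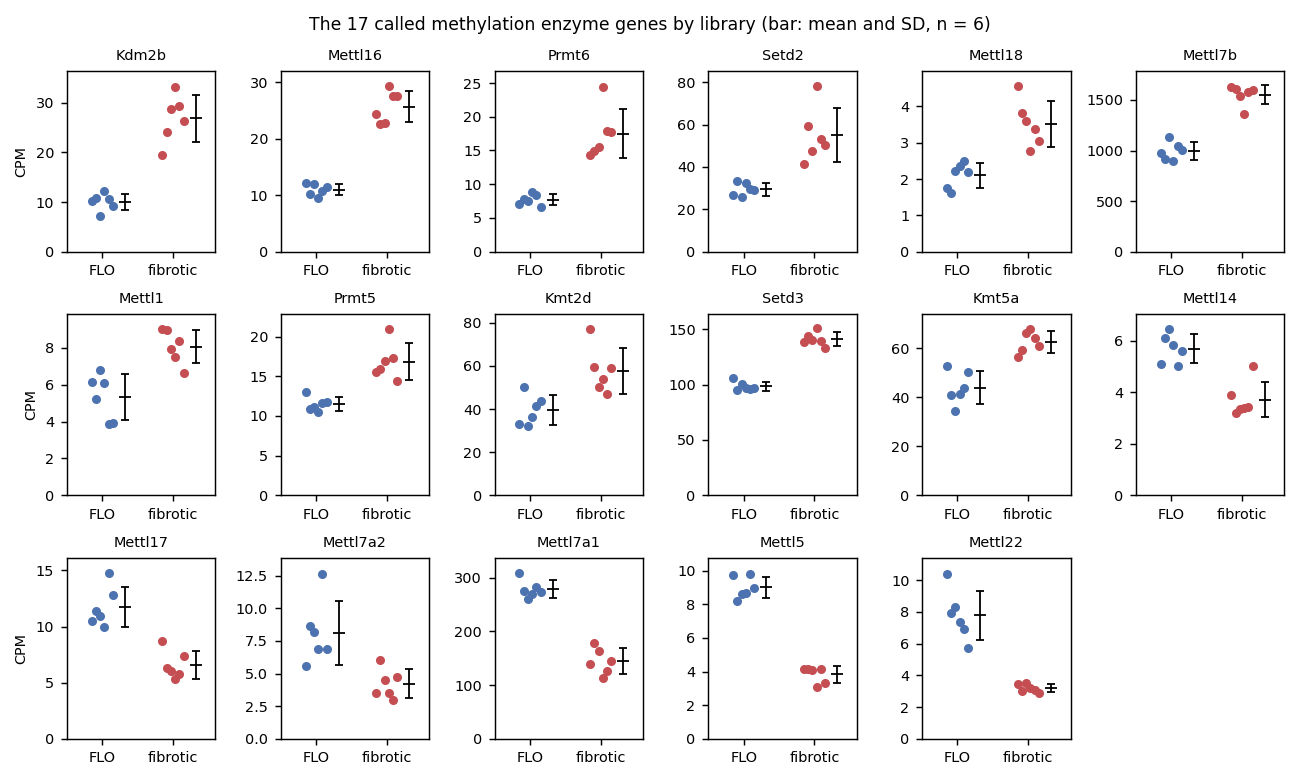
CPM of the 17 called genes in each library (vertical axes from 0, 1 panel per gene), FLO in blue and fibrotic in red, with the mean and SD of 6 libraries beside the points. Panels run from the largest rise (Kdm2b) to the largest fall (Mettl22), and only the panels of Mettl1, Kmt2d and Mettl7a2 have ranges that overlap.

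The Mettl family moved in both directions, with 4 genes higher (17.4%), 6 lower (26.1%) and 13 not called. Among all genes tested, 15.9% were called higher and 14.0% lower, so both directions were common. Mettl16 methylates adenosine in the U6 spliceosomal RNA and in hairpins of the Mat2a message, through which it governs splicing of that message. It had 9.50, 11.1 and 12.1 CPM in FLO livers and 22.6, 25.9 and 29.2 CPM in fibrotic livers. The groups lay far apart (1.22 ± 0.09, adjusted p = 9.36e-08), a 2.34-fold higher level. Mat2a, which encodes the S-adenosylmethionine synthetase of most tissues other than the adult hepatocyte, rose with overlapping ranges (80.9 to 131 CPM in FLO livers, 108 to 182 CPM in fibrotic livers, 0.54 ± 0.14, adjusted p = 0.00483). Mat1a, the synthetase of the adult hepatocyte, fell (-1.08 ± 0.17, adjusted p = 0.000105).

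Mettl3 and Mettl14 form the heterodimer that writes m6A in messenger RNA, Mettl3 being the catalytic subunit. Mettl14 had 5.03, 5.71 and 6.46 CPM in FLO livers and 3.21, 3.40 and 5.01 CPM in fibrotic livers. All its fibrotic values lay below all FLO values (-0.62 ± 0.14, adjusted p = 0.00152). Mettl3 had 6.63, 7.67 and 9.40 CPM in FLO livers and 7.63, 10.4 and 13.1 CPM in fibrotic livers (0.40 ± 0.13, adjusted p = 0.0219), without a call. The ratio of Mettl14 to Mettl3 CPM within a library was 0.595 to 0.785 in FLO livers and 0.268 to 0.442 in fibrotic livers, so that the groups did not overlap in it. Under library totals alone Mettl14 lost its call (-0.44) and Mettl3 gained one (0.57). On the other strand 30% of the Mettl3 transcript overlaps Tox4, which was not called (0.11 ± 0.10).

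Mettl5 methylates 18S ribosomal RNA in a dimer with Trmt112, which stabilizes it. Mettl5 had 8.21, 8.83 and 9.83 CPM in FLO livers and 3.09, 4.11 and 4.18 CPM in fibrotic livers. Every fibrotic library was below 5 CPM and every FLO library above 8 CPM (-1.23 ± 0.11, adjusted p = 6.01e-07). Trmt112 fell as well, from 25.2 ± 0.958 CPM to 14.6 ± 1.80 CPM (SD, n = 6), without overlap (-0.78 ± 0.09, adjusted p = 3.42e-06). The ratio of Mettl5 to Trmt112 CPM was 0.335 to 0.374 in FLO livers and 0.202 to 0.294 in fibrotic livers. Mettl4, another adenosine methyltransferase, stood at -0.42 ± 0.17 (adjusted p = 0.0456).

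Of 10 partner genes of the RNA writers, 3 rose and 1, Trmt112, fell, which is 40.0% called against 29.9% of all genes tested. Wtap, the regulatory subunit of the Mettl3 and Mettl14 complex, rose (0.57 ± 0.08, adjusted p = 2.26e-05), as did its RNA-binding subunit Rbm15b (0.86 ± 0.11, adjusted p = 8.72e-06) and Pcif1, which methylates cap-adjacent adenosine (0.59 ± 0.08, adjusted p = 1.68e-05). Virma (-0.22), Zc3h13 (-0.04), Rbm15 (-0.30) and Cbll1 (0.16) were not called. The subunits of the m6A writer complex thus differed in direction. Neither demethylase of m6A was called (Fto 0.24 ± 0.09, adjusted p = 0.0379, and Alkbh5 0.23 ± 0.12, adjusted p = 0.107). Of the readers, Ythdf1 (0.81 ± 0.11, adjusted p = 2.23e-05), Ythdf2 (0.94 ± 0.09, adjusted p = 1.24e-06) and Ythdc2 (0.81 ± 0.20, adjusted p = 0.00303) rose. Ythdf3 (0.07 ± 0.08, adjusted p = 0.468) was not called. The reader Hnrnpa2b1 lay lower in every fibrotic library than in any FLO library, but under the fold threshold (-0.33 ± 0.08, adjusted p = 0.00266). Of the 11 tested erasers and readers of RNA methylation 27.3% were called, against 29.9% of all genes tested.

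**Figure D4:**
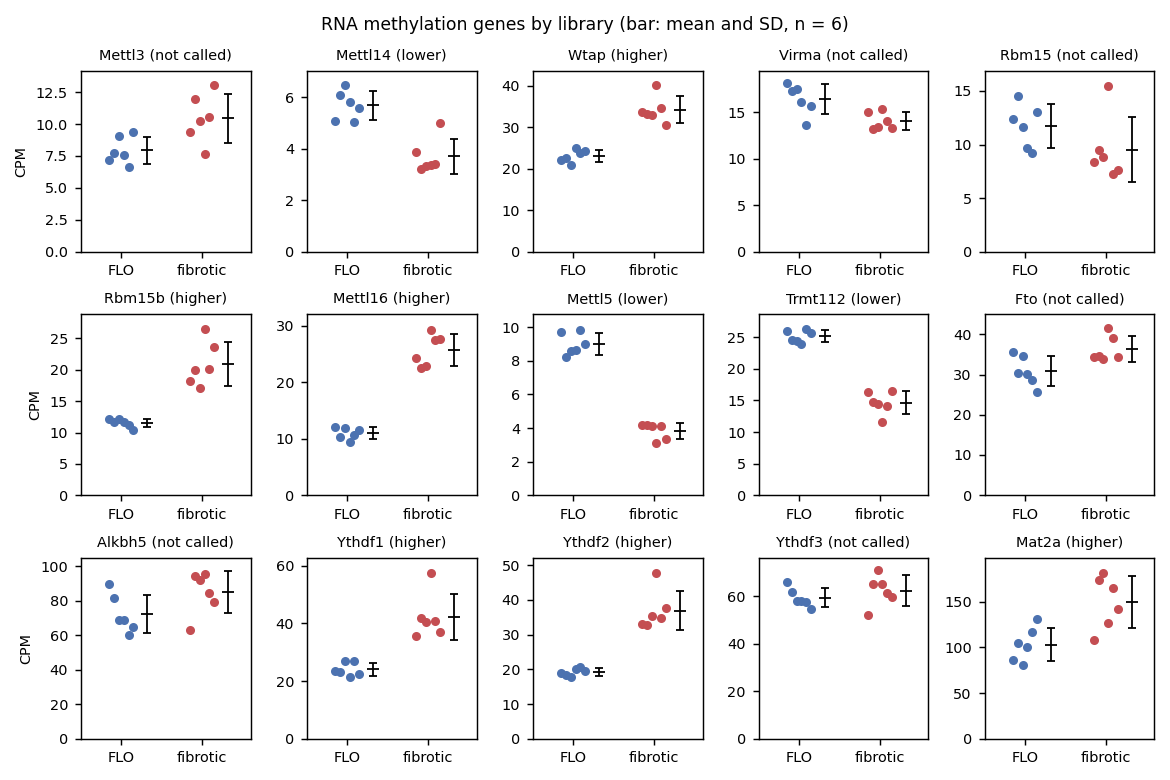
CPM of 15 genes of RNA methylation in each library (vertical axes from 0), FLO in blue and fibrotic in red, with the mean and SD of 6 libraries; the call of each gene is in its title. Mettl14, Mettl5 and Trmt112 lie lower in every fibrotic library than in any FLO library, and Mettl16, Wtap, Rbm15b, Ythdf1 and Ythdf2 lie higher.

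The tRNA writer Mettl1, which makes 7-methylguanosine with Wdr4, had 3.85, 5.65 and 6.80 CPM in FLO livers and 6.63, 8.14 and 9.02 CPM in fibrotic livers. Its ranges touched at their edges (0.59 ± 0.15, adjusted p = 0.00418), and the call ended when fibrotic replicate 1 (adjusted p = 0.0105) or FLO replicate 6 (adjusted p = 0.0102) was left out. Wdr4 was not called (0.04). Mettl2 (0.31), Mettl6 (0.15) and Mettl8 (-0.43), which modify cytosines of tRNA, were not called. Mettl17, a factor of the mitochondrial ribosome, had 9.99, 11.2 and 14.7 CPM in FLO livers and 5.29, 6.15 and 8.68 CPM in fibrotic livers. It fell without overlap between groups (-0.84 ± 0.14, adjusted p = 0.000116), while Mettl15, which methylates mitochondrial 12S ribosomal RNA, stood at 0.29 ± 0.13 (adjusted p = 0.0818).

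Of the Mettl enzymes that act on proteins, 1 of 6 rose and 1 fell, which is 33.3% called against 29.9% of all genes tested. Mettl22, a lysine methyltransferase of the DNA-binding protein Kin17, fell most of all members. Its FLO values were 5.74, 7.63 and 10.4 CPM and its fibrotic values 2.89, 3.15 and 3.50 CPM. The fibrotic libraries were tightly grouped and all lay below the lowest FLO library (-1.28 ± 0.14, adjusted p = 3.12e-06), a 2.43-fold lower level. Mettl18, which methylates a histidine of ribosomal protein Rpl3, had 1.61, 2.20 and 2.49 CPM in FLO livers and 2.76, 3.49 and 4.56 CPM in fibrotic livers. It rose (0.74 ± 0.17, adjusted p = 0.00185) without overlap. Mettl13, which methylates the elongation factor eEF1A, lay just under the fold threshold (0.49 ± 0.12, adjusted p = 0.00352). Mettl23, at -0.44 ± 0.12 (adjusted p = 0.00489), overlaps Srsf2 on the other strand over 23.7% of its transcript, and Srsf2 had a like value of -0.46 ± 0.07.

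The Mettl7 genes encode thiol methyltransferases of the endoplasmic reticulum and lipid droplets, which detoxify hydrogen sulphide and thiol drugs. Mettl7b had 901, 989 and 1136 CPM in FLO livers and 1366, 1589 and 1629 CPM in fibrotic livers. Every fibrotic library lay above every FLO library (0.64 ± 0.09, adjusted p = 2.95e-05). Mettl7a1 had 260, 274 and 308 CPM in FLO livers and 113, 142 and 178 CPM in fibrotic livers, and fell without overlap (-0.95 ± 0.10, adjusted p = 2.86e-06). The ratio of Mettl7b to Mettl7a1 CPM ran from 3.17 to 4.37 in FLO livers and from 9.05 to 12.6 in fibrotic livers. Mettl7a2 also fell (-0.94 ± 0.21, adjusted p = 0.00128), from 8.13 ± 2.45 CPM to 4.22 ± 1.11 CPM (SD, n = 6). Mettl7a1 shares 24.8% of its 50-base windows with other genes, mainly Mettl7a2, and 63.5% of Mettl7a2 occurs elsewhere, so that how counts were divided between these paralogues is uncertain. The rise of Mettl7b and the fall of Mettl7a1 kept their calls in every alternative run.

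Genes that make and use up S-adenosylmethionine changed in both directions, with 2 of 10 higher and 3 lower. Besides Mat2a and Mat1a, Ahcy, which hydrolyses S-adenosylhomocysteine, fell (-1.15 ± 0.17, adjusted p = 5.61e-05), as did Gnmt, which consumes excess S-adenosylmethionine (-0.82 ± 0.23, adjusted p = 0.00719). Ahcyl2, an inactive relative of Ahcy, rose (0.56 ± 0.10, adjusted p = 0.000364). The ratio of Mat2a to Mat1a CPM was 0.0169 to 0.0327 in FLO livers and 0.0497 to 0.107 in fibrotic livers, without overlap.

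The members not described so far were not called. Kdm8 (-0.56 ± 0.22, adjusted p = 0.0408) and Mettl25 (-0.58 ± 0.28, adjusted p = 0.1) passed the fold threshold but not the adjusted p. The others, Kmt2e, Kdm4b, Kdm7a, Setd4, Setd5, Setd6, Mettl9, Mettl21a and Mettl27, lay between -0.27 (Kmt2e) and 0.29 (Setd4).

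Of the sex-linked demethylases among the members, Kdm5d and Kdm6a depended on the library labelled FLO replicate 3. Kdm5d, on the Y chromosome, had 0 counts there and 105 to 166 counts in the other libraries. Its log2 fold change was 0.01 ± 0.55 with that library and -0.26 ± 0.14 without it (adjusted p = 0.153). Kdm6a, which escapes X inactivation, was at 15.1 CPM in that library and at 7.06 to 9.52 CPM in the other FLO libraries, and its log2 fold change changed sign without it (0.06). Fibrotic replicate 4, which is male by Xist and Ddx3y, had a like Kdm6a level of 15.1 CPM. Kdm5c, also on the X chromosome, ranged from 43.6 to 70.7 CPM in FLO livers and 52.7 to 70.6 CPM in fibrotic livers (0.18 ± 0.13, adjusted p = 0.244). Leaving out any 1 library kept its log2 fold change between 0.11 and 0.25.

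**Figure D5:**
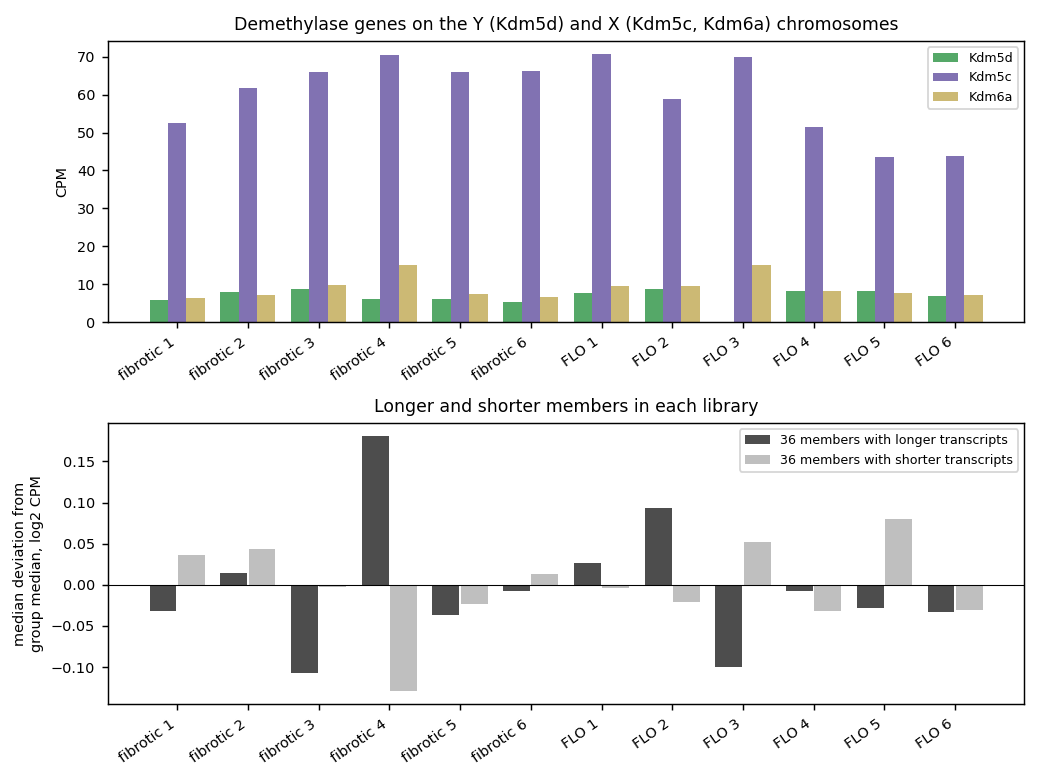
Upper panel, CPM of Kdm5d, Kdm5c and Kdm6a in each of the 12 libraries, where the Kdm5d bar is missing only in FLO replicate 3. Lower panel, the median deviation from the group median (log2 CPM) of the 36 members with longer and the 36 with shorter transcripts, which reaches 0.18 and -0.13 in fibrotic replicate 4.

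Without FLO replicate 3 and fibrotic replicate 4 together, an alternative chosen after seeing the data, 17 members were called, of which 15 were shared with the full set of libraries. Kmt5a (0.43) and Prmt5 (0.48) then lay under the fold threshold, and Kdm4c and Mettl3 (0.52, adjusted p = 0.00301) were called instead. The median over the members was 0.10, over the writers 0.12 and over the erasers 0.02. The directions of all other calls were those given above.

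Other cell types moved with the groups as well. Kupffer cell markers summed to 179 to 340 CPM in fibrotic livers and 125 to 163 CPM in FLO livers (4 of 6 genes higher, exact permutation adjusted p = 0.00938), and macrophage markers to 131 to 316 and 107 to 144 CPM (3 of 8 higher, adjusted p = 0.0161). Cholangiocyte markers summed to 96.5 to 297 and 59.8 to 102 CPM (3 of 6 tested genes higher, adjusted p = 0.0113), and endothelial markers to 136 to 184 and 184 to 210 CPM (1 of 7 lower, adjusted p = 0.0113). Spp1 made up most of the mean cholangiocyte sum (122 of 163 CPM in fibrotic livers and 60.5 of 83.0 CPM in FLO livers). Proliferation markers summed to 57.0 to 70.8 CPM in fibrotic livers and 64.9 to 87.2 CPM in FLO livers (1 of 10 higher and 4 lower, adjusted p = 0.0161), and the hepatocyte list had 1 of 8 genes higher and 2 lower (adjusted p = 0.0375). Alb, itself not called, made up most of the mean hepatocyte sum (52922 of 67489 CPM in fibrotic livers and 65410 of 82766 CPM in FLO livers). No gene of these lists was at 0 in any library, except Itgam of the macrophage list in 1 library. Lymphocyte (1.68 to 5.17 and 2.02 to 5.33 CPM), neutrophil (0.970 to 4.21 and 0.770 to 4.06 CPM) and stellate cell markers (224 to 416 and 213 to 344 CPM, 1 of 8 higher and 1 lower) did not pass this test. Only 2 of 10 lymphocyte genes and 1 of 6 neutrophil genes passed the low-count filter, and none of these was called. On the adipocyte list only Car3, also a hepatocyte gene, was abundant, and it fell (-2.29 ± 0.57, adjusted p = 0.00497); Adipoq and Lep were at 0 in 6 and 8 libraries. Mitochondrial transcripts took 4.93% to 7.88% of counts in fibrotic livers and 7.30% to 10.2% in FLO livers (adjusted p = 0.0176). The part of these differences in the changes of the methylation enzyme genes was not tested, and in whole liver a change in the number of cells of a type and a change in the RNA per cell cannot be told apart.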

How the data were processed

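Poly(A)-selected RNA of 12 livers (6 fibrotic, 6 FLO) was sequenced, and groups were read from the sample titles. The deposited file is a single table of raw, unnormalized counts for Ensembl genes. The submitters' processing notes name bcl2fastq, STAR 2.7.3a and mm10. The annotation and strand setting of the counting are not given in the sources used here, so windows of the longest coding transcript (GENCODE M21) shared with other genes were counted, 50 bases each, and transcript lengths came from the same models. Of 56205 identifiers, 51745 were given a symbol by an added gene name list, and the unnamed ones held 0.0587% of counts.

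Counts were tested in R 4.3.3 with edgeR 4.0.16 (TMM, filterByExpr, robust quasi-likelihood fit, Benjamini-Hochberg adjustment over 13416 genes), a test checked on simulated data first. Following the thresholds that the study set, a call needs an adjusted p of 0.01 or less and a log2 change beyond 0.5 in size. The SE is the absolute log2 fold change over the square root of F. Log2 CPM used a prior count of 2. Library measures were compared by two-sided exact permutation tests over 924 assignments (smallest p 0.00216), adjusted over 13 measures. DESeq2 1.42.0, limma-voom (limma 3.58.1), other normalizations, filters and left-out libraries were alternatives. Total counts set the counting error, which the SDs between libraries include. Replicate numbers did not pair the libraries.

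The 72 genes and all lists were chosen with earlier results of these data known, so list counts are descriptions. Named genes were every called member, a fixed list of core enzymes, called genes of the context lists with Fto and Alkbh5, and Xist and Ddx3y. Other genes named (Dnmt3b's neighbours in value such as Prmt2, Kdm1b, Kdm4c, Mettl13, Mettl23 and Mettl26, the remaining members given with a value, and uncalled context genes) were chosen after their values were seen. Promoters came from the RefSeq promoter table (GRCm38.p6).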

Additional observations from a re-analysis of the deposited data

Results flagged for a closer look

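Among 90 groups of 6 libraries (45 named genes in each group), 4 held a library whose gap to its nearest neighbour, as a share of the group's range, exceeded Dixon's 95% critical value. Chance alone flags about 1 in 20 groups, or 4.5 here. Kdm5d was lowest in the library labelled FLO replicate 3 (0 CPM, ratio 0.947), the library with 3773 Xist counts. Kdm5b was highest in fibrotic replicate 4 (23.0 CPM, ratio 0.696), and Mettl7b was lowest there (1366 CPM, ratio 0.676). Kdm5b has a long transcript and Mettl7b a short one, and that library lay 0.18 log2 units above its group over longer members and 0.13 below it over shorter ones (-0.13). Whether transcript length played a part in either value was not tested. Ezh2 was lowest in fibrotic replicate 2 (1.27 CPM, ratio 0.639).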

How the results depend on the processing

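Over 26 alternatives, of which 12 left out 1 library and 1 left out 2, the called members kept their direction. Library totals alone moved most: 20 members were called higher, the medians over members, writers and erasers were 0.35, 0.35 and 0.31, and 9 calls were gained (among them Dnmt3b, Kdm5b, Kdm6b and Mettl3). Leaving out FLO replicate 3 and fibrotic replicate 4 together gave medians of 0.098, 0.123 and 0.0215. Over all 72 members the signs that turned belonged to genes without a call. Library totals turned 7 (Kdm4a, Kdm4b, Kdm6a, Kmt5b, Setd6, Tet2 and Tet3), the other alternatives that kept all libraries at most 2 each. Under RLE Ezh1 was -0.0061 and Kdm5d -0.0056, under upper quartile Ezh1 -0.0136 and Kdm5d -0.0170, and in DESeq2 Ezh1 -0.0045 and Kdm5d -0.0105. Thinned to the smallest library Kdm5d was -0.0123, and without both named libraries Ezh1 was -0.0073 and Kdm5d -0.22. Under library totals Kdm4a was 0.0499, Kdm6a 0.0706, Tet2 0.00089 and Tet3 0.18. With at least 10 counts in every library Tet3 was 0.0023, and in limma-voom 0.0096. Leaving out 1 library gave 9 to 13 members higher, 6 to 8 lower and 3798 to 4093 genes called. The same omissions ranged the medians over members from 0.14 to 0.19, over writers from 0.15 to 0.20 and over erasers from 0.05 to 0.19. They also turned the sign of Ezh1 (-0.0195 to 0.0470), Kdm5a (-0.0034 to 0.21), Kdm5d (-0.26 to 0.11), Kdm6a (-0.35 to 0.0558), Setd1b (-0.0051 to 0.18) and Tet3 (-0.0881 to 0.0726), and of Setd6, a gene not followed singly, in 4 omissions. The correlation of deviations between libraries with the same replicate number ran from -0.16 to 0.10, so the numbers share only a label. With the replicate block 16 members and 3780 genes were called, and Mettl18 missed the threshold (adjusted p = 0.0118). DESeq2 called 4654 genes and 17 members, 15 of them shared. The causes were not tested. Depth limits the scarce members most, Dnmt3b among them at about 1 CPM.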

Other observations

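The 72 genes together took 0.233% to 0.249% of all counts in FLO livers and 0.307% to 0.368% in fibrotic livers. Per TMM-adjusted library size the shares were 0.245% to 0.265% and 0.307% to 0.327%, still without overlap. Without Mettl7b the groups did not overlap as shares of all counts (0.142% to 0.153% and 0.156% to 0.204%), but they did per TMM-adjusted library size (0.151% to 0.165% and 0.154% to 0.170%). The ratio of Mettl16 to Mettl3 CPM was 1.22 to 1.69 in FLO livers and 1.89 to 3.83 in fibrotic livers, without overlap, whereas the ratio of Ezh2 to Ezh1 CPM (0.150 to 0.220 and 0.0809 to 0.217) and that of Kdm6a to Kdm6b CPM (0.305 to 0.952 and 0.241 to 0.449) overlapped between groups. These ratios were picked after the values of the genes were known.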
